A study of Homo sapiens with 24 samples.

Results

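Glutathione S-transferases (GSTs) are the enzymes that join glutathione to reactive small molecules. The 10 genes described here, GSTP1, GSTO1, GSTK1, GSTZ1, GSTM2, GSTM4, GSTA4, MGST1, MGST2 and MGST3, were chosen by gene symbol as a family, with earlier results of these data known, and all 10 were found among the 60232 genes of the count table. RNA came from 22Rv1 cells, a human line established from a prostate carcinoma, and gave 9 libraries. The 3 groups were KB05 at 200 µM, KB02 at 200 µM and DMSO, the vehicle, with 3 biological replicates each, all collected at 3 h. Cells met a compound for 1 h and then spent 2 h in new medium without it, and both compounds are known here by code name. The remaining 15 samples of the series belong to an 8 h experiment and were not analysed here.

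Cytosolic GSTs form classes named by letters (alpha, mu, pi, omega, zeta), kappa-class GST sits in mitochondria and peroxisomes, and the microsomal GSTs (MGST) are small integral membrane proteins of a separate family called MAPEG. They conjugate glutathione to electrophiles, reduce lipid peroxides, or, as with MGST2, help to make leukotriene C4. Several GST genes are textbook targets of NRF2, which binds antioxidant response elements (ARE), and of the aryl hydrocarbon receptor (AHR), which binds xenobiotic response elements (XRE). In prostate cancer GSTP1 is widely known for silencing by promoter methylation. Transcript levels were given as CPM, that is counts scaled to sequencing depth with TMM library factors, and a gene was called changed when the Benjamini-Hochberg adjusted p of the edgeR quasi-likelihood test over 18379 genes was below 0.05.

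Promoter sequences are shown for 3 of the 4 members that were lower with both compounds than with DMSO, and for GSTP1 because its promoter holds a classical ARE. They run from 250 bases before to 50 bases after a RefSeq start site on GRCh38.p14, 5′ to 3′ on the gene's strand, in lower case. Capitals mark matches, on either strand, to the ARE core TGACNNNGC, the AP-1 motif TGANTCA or the XRE core GCGTG.
MGST1 (chr12:16347528-16347827, plus strand): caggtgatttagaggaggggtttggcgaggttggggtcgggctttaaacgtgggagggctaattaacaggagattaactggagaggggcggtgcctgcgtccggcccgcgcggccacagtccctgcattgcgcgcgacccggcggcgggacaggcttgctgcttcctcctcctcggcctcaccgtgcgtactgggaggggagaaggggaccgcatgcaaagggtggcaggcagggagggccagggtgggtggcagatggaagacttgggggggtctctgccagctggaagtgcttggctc
MGST3 (chr1:165630984-165631283, plus strand): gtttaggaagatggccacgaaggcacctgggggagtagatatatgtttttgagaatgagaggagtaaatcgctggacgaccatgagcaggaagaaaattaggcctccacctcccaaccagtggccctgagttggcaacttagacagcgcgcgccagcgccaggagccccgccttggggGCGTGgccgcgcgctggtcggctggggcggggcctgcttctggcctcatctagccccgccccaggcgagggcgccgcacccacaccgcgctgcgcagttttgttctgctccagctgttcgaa
GSTK1 (chr7:143263191-143263490, plus strand): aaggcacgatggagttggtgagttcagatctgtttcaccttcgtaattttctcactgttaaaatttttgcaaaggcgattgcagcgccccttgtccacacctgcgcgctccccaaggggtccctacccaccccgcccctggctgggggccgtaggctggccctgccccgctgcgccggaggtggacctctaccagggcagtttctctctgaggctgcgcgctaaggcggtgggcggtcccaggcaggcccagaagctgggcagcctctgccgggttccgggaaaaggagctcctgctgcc
GSTP1 (chr11:67583562-67583861, plus strand): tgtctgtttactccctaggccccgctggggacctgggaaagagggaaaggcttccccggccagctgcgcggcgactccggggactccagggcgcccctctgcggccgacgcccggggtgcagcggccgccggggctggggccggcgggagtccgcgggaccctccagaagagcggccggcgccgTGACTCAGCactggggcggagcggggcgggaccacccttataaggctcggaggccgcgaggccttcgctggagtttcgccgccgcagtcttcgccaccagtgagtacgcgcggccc
MGST1 has 3 entries in the RefSeq promoter table, and the start site of the one shown is the start of its principal GENCODE transcript. For MGST3, GSTP1 and GSTK1 the RefSeq start lies 373, 217 and 2 bases from that of the principal GENCODE transcript. MGST2 had no entry, and the other 9 members matched.

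In the GSTP1 window the ARE core and the AP-1 motif overlap in the same letters, TGACTCAGC, beginning 66 bases upstream of the start. The MGST3 window holds 1 XRE core, 72 bases upstream. The GSTK1 window and the MGST1 window shown hold none of the 3 motifs. Over all entries, the ARE core was present in 4 of 9 members (GSTP1, GSTO1, GSTA4 and another entry of MGST1), AP-1 in 1 and the XRE core in 3 (GSTZ1, GSTM4 and MGST3). Among all 35116 promoters of 300 bases in that table, 13.3% held the ARE core, 7.71% the AP-1 motif and 36.5% the XRE core. These shares count each window by itself, whereas MGST1, with 3 entries, counted if any of them matched, so the units differ. Of the 4 members lower with both compounds, MGST2 had no entry and could not be searched. Among the other 3, MGST1 alone held an ARE core. It is in an entry other than the one shown, where it lies 30 bases downstream of the start. A match in these letters is a description of the window and does not show binding.

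No member was too low to judge. All 10 passed the expression filter, with between 89 and 4948 counts in every library, at total counts of 15506975 to 21900548 per library. GSTP1, the pi-class enzyme, had 89 to 171 counts per library and the widest 95% intervals of the members. Reads of the mu-class members GSTM2 and GSTM4 may be hard to assign. Of the 31-base words in the principal GSTM2 transcript, 80.7% also occur in transcripts of other genes (GENCODE release 29), chiefly GSTM1 (51.1%) and GSTM4 (50.7%), and for GSTM4 this share was 30.5%, so the division of reads between these genes is uncertain. The share was 8.07% for GSTO1, 0.107% for GSTP1 and 0 for the other 6 members. MGST1 and MGST2 overlap other annotated genes on the opposite strand, LMO3 and MAML3, GSTZ1 touches POMT2 and GSTK1 overlaps an antisense transcript. No source used here says whether the counting used strand.

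In DMSO-treated cells MGST1 was the member with the highest level per transcript length. MGST1, an endoplasmic reticulum and outer mitochondrial membrane enzyme with transferase and peroxidase activity, stood at 223 ± 41.9 CPM per kilobase of its principal transcript (SD, n = 3). GSTK1, the kappa-class enzyme, followed at 106 ± 3.02 and MGST2 at 99.6 ± 8.6 CPM per kilobase, and the libraries of this pair overlapped. MGST3, a membrane enzyme with glutathione peroxidase activity, stood at 58.7 ± 4.62 CPM per kilobase, and GSTO1, the omega-class enzyme with a catalytic cysteine, at 51.3 ± 3.96, again with overlapping libraries. Below these came GSTZ1, the zeta-class maleylacetoacetate isomerase of tyrosine breakdown, at 29.6 ± 4.26 and the mu-class GSTM4 at 20.5 ± 2.06 CPM per kilobase, neither overlapping its neighbours. GSTA4, the alpha-class enzyme that handles the lipid aldehyde 4-hydroxynonenal, stood at 12.7 ± 0.493 CPM per kilobase, above all libraries of the mu-class GSTM2 at 10.4 ± 1.18. GSTP1 was lowest at 8.0 ± 2.66 CPM per kilobase, overlapping GSTM2. The order rests on the length used: divided by the union of all annotated exons, MGST2 led at 40.0 CPM per kilobase, followed by GSTO1 at 29.5, MGST1 at 29.4 and GSTK1 at 26.2.

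Transcripts of the 3 membrane-bound members and of GSTK1 were called lower with both compounds, and fell further with KB02 than with KB05. For MGST3 the call with KB05 held in 10 of 14 alternative fits, and its KB05 and DMSO libraries overlapped. Against DMSO, no member was called higher. MGST2 fell 3.41-fold and MGST1 3.04-fold with KB02, against 1.46-fold and 1.68-fold with KB05. GSTO1 passed the test with KB02, at 1.19-fold lower, and the 5 remaining members passed it with neither compound. With KB02, 5 of 10 members were lower and none higher, where 46.1% of all genes tested were called, 23.3% lower and 22.8% higher. With KB05, 4 of 10 were lower and none higher, where 39.8% of all genes were called, 21.1% lower and 18.7% higher. The median log2 fold change of the members was -0.28 with KB02 and -0.20 with KB05, with medians over all genes of 0.00 in either comparison. Both comparisons use the same 3 DMSO libraries.

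**Figure D1:**
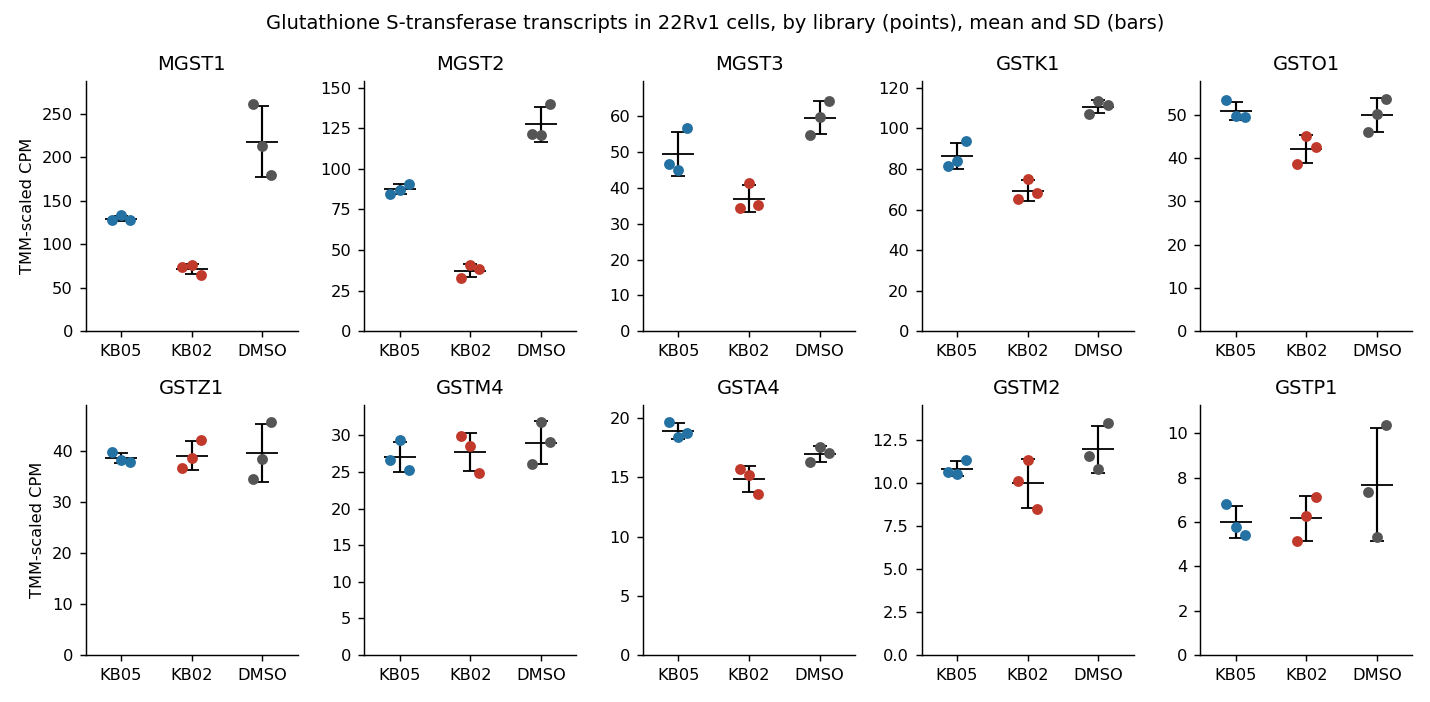
TMM-scaled CPM of each member (vertical axes start at 0) in the 3 libraries of KB05, KB02 and DMSO. Points are libraries and black bars the mean and SD. MGST1, MGST2 and GSTK1 are lowest with KB02, intermediate with KB05 and highest with DMSO, with no overlap between groups.

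The membrane-bound members are described first. MGST1 (ENSG00000008394.13, chromosome 12, 16347142 to 16609259, GRCh38, protein-coding) had 128, 134 and 128 CPM with KB05, 74.0, 76.4 and 64.7 CPM with KB02, and 262, 213 and 180 CPM with DMSO. All KB02 libraries lay below all KB05 libraries, and these lay below all DMSO libraries, although the DMSO libraries were widely spread. Its log2 fold change was -0.75 ± 0.11 for KB05 against DMSO (SE; edgeR adjusted p = 0.00015) and -1.61 ± 0.12 for KB02 against DMSO (adjusted p = 7.76e-08). Only 1.24% of genes tested had a lower fold change with KB02, and 6.91% had a lower one with KB05.

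MGST2 (ENSG00000085871.9, chromosome 4, 139665768 to 139740745, protein-coding), which conjugates glutathione to leukotriene A4 and to other electrophiles, had 84.7, 86.8 and 90.7 CPM with KB05, 32.8, 40.8 and 38.3 CPM with KB02, and 121, 121 and 140 CPM with DMSO. Again no group overlapped another. The log2 fold change was -0.54 ± 0.08 for KB05 against DMSO (SE; edgeR adjusted p = 1.59e-06) and -1.77 ± 0.08 for KB02 against DMSO (adjusted p = 3.98e-17). MGST1 and MGST2 were the members lowered at least 2-fold by KB02, a change found in 6.28% of genes tested, and no member reached it with KB05, where 2.7% did. No member was at least 2-fold higher with either compound, where 4.97% of genes were with KB05 and 6.04% with KB02.

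MGST3 (ENSG00000143198.13, chromosome 1, 165630861 to 165661796, protein-coding) had 46.6, 45.1 and 56.6 CPM with KB05, 34.4, 41.2 and 35.3 CPM with KB02, and 54.8, 59.8 and 64.2 CPM with DMSO. The KB02 libraries lay below all others, while 1 KB05 library lay within the DMSO range. It fell with KB02 by 0.69 ± 0.09 on the log2 scale (SE; edgeR adjusted p = 3.44e-07). The smaller change with KB05, -0.27 ± 0.09 (adjusted p = 0.0189), lost its call without DMSO replicate 2 (0.0554) or 3 (0.0968) and without KB05 replicate 1 (0.096) or 2 (0.113).

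GSTK1 (ENSG00000197448.14, chromosome 7, 143244093 to 143270854, protein-coding) had 81.2, 84.1 and 93.6 CPM with KB05, 65.0, 75.0 and 68.1 CPM with KB02, and 107, 113 and 112 CPM with DMSO. No group overlapped another. Its log2 fold change was -0.36 ± 0.07 for KB05 against DMSO (SE; edgeR adjusted p = 0.000205) and -0.67 ± 0.07 for KB02 against DMSO (adjusted p = 4.25e-09).

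GSTO1 (ENSG00000148834.13, chromosome 10, 104235356 to 104267459, protein-coding), which reduces dehydroascorbate and protein-glutathione disulfides, had 53.4, 49.7 and 49.5 CPM with KB05, 38.6, 45.1 and 42.5 CPM with KB02, and 45.9, 50.1 and 53.6 CPM with DMSO. The KB02 libraries lay below the others, the nearest by less than 1 CPM, and the KB05 and DMSO libraries overlapped. The change with KB02, -0.25 ± 0.08 on the log2 scale (SE; edgeR adjusted p = 0.0128), was not called with upper-quartile scaling (0.0517), with library size only (0.274), or without DMSO replicate 2 (0.101), DMSO replicate 3 (0.077) or KB02 replicate 1 (0.233). With KB05 it was 0.03 ± 0.08, with an adjusted p of 0.809.

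The 5 remaining members passed the test against DMSO with neither compound. GSTA4 (ENSG00000170899.11, chromosome 6, 52977948 to 52995378) had 19.6, 18.4 and 18.7 CPM with KB05, 15.7, 15.2 and 13.6 CPM with KB02, and 16.3, 17.6 and 17.1 CPM with DMSO. Its KB05 libraries thus lay above and its KB02 libraries below those of DMSO, with log2 fold changes of 0.16 ± 0.10 (SE; edgeR adjusted p = 0.238) and -0.19 ± 0.10 (0.127). GSTZ1 (ENSG00000100577.19, chromosome 14, 77320884 to 77331597) averaged 38.7 ± 1.02 CPM with KB05, 39.1 ± 2.86 CPM with KB02 and 39.6 ± 5.7 CPM with DMSO (SD, n = 3 each). The 95% interval of its log2 fold change ran from -0.22 to 0.15 for KB05 and from -0.20 to 0.17 for KB02.

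GSTM4 (ENSG00000168765.17, chromosome 1, 109656081 to 109674836) averaged 27.1 ± 2.07 CPM with KB05, 27.8 ± 2.59 CPM with KB02 and 28.98 ± 2.91 CPM with DMSO (SD, n = 3 each). GSTM2 (ENSG00000213366.13, chromosome 1, 109668022 to 109709551) averaged 10.8 ± 0.421 CPM with KB05, 9.99 ± 1.44 CPM with KB02 and 12.0 ± 1.37 CPM with DMSO. Both spans overlap on the annotation, and both values carry the doubt on shared reads. GSTP1 (ENSG00000084207.18, chromosome 11, 67583595 to 67586656) had 6.83, 5.79 and 5.4 CPM with KB05, 5.13, 6.26 and 7.15 CPM with KB02, and 7.36, 5.32 and 10.4 CPM with DMSO. All 3 groups overlapped, and the 95% interval of the log2 fold change ran from -0.76 to 0.07 for KB05 and from -0.72 to 0.09 for KB02. Without DMSO replicate 2 both changes of GSTP1 were called, at -0.56 for KB05 (edgeR adjusted p = 0.0232) and -0.48 for KB02 (0.0415), and without DMSO replicate 3 they were -0.07 (0.805) and -0.05 (0.874).

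**Figure D2:**
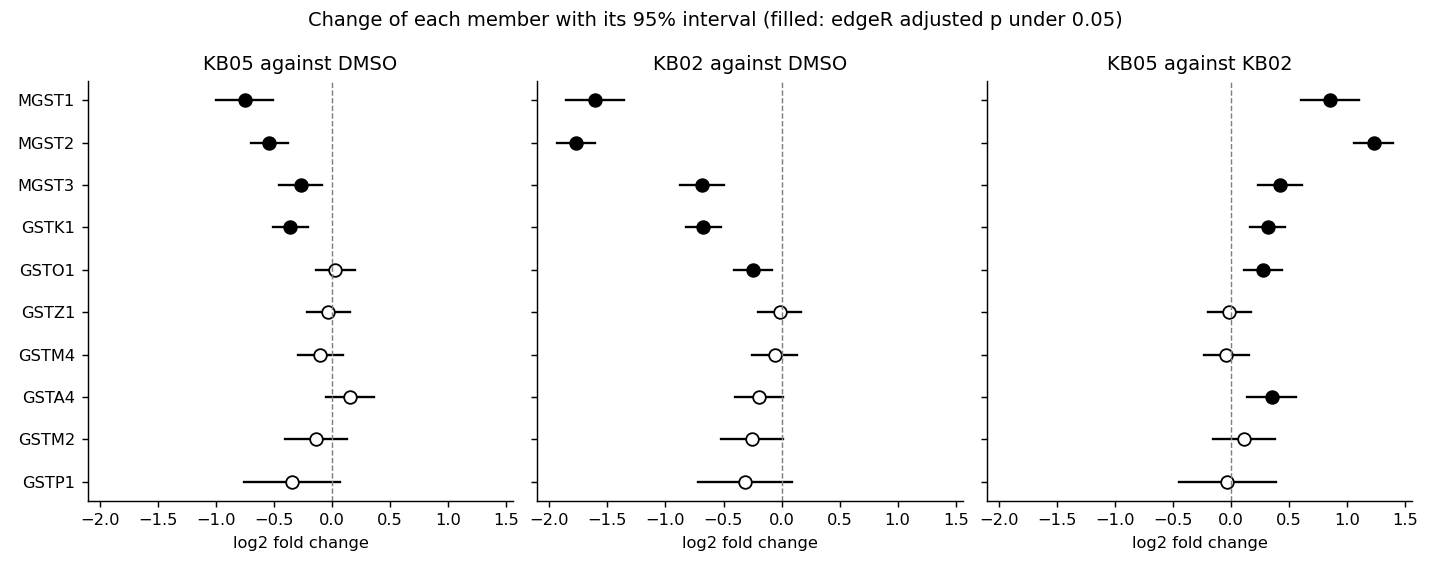
Log2 fold change of each member (points) with its 95% interval (lines) for KB05 against DMSO, KB02 against DMSO and KB05 against KB02. Filled points passed the edgeR test; MGST1 and MGST2 lie farthest from 0 in all 3 comparisons, at -1.61 and -1.77 for KB02 against DMSO.

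The compounds were compared directly at the matched dose and time, over 10 members and with p adjusted over all 18379 genes. KB05 left 6 of 10 members higher than KB02 did and none lower, where 40% of all genes were called, 21.8% higher and 18.2% lower with KB05 than with KB02. MGST2 alone was at least 2-fold higher with KB05, as were 4.11% of all genes, and no member was at least 2-fold lower, as were 5.23%. Members higher with KB05 were MGST1, MGST2, MGST3, GSTK1, GSTO1 and GSTA4. MGST2 averaged 87.4 ± 3.06 CPM with KB05 and 37.3 ± 4.07 CPM with KB02 (SD, n = 3 each), a log2 difference of 1.23 ± 0.08 (SE; edgeR adjusted p = 3e-13). MGST1 averaged 129.7 ± 3.35 CPM with KB05 and 71.7 ± 6.15 CPM with KB02, a log2 difference of 0.85 ± 0.11 (edgeR adjusted p = 5.3e-05).

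Smaller differences separated the compounds for MGST3 (0.42 ± 0.09 on the log2 scale, SE; edgeR adjusted p = 0.000529), GSTA4 (0.35 ± 0.10; 0.00663), GSTK1 (0.32 ± 0.07; 0.000895) and GSTO1 (0.28 ± 0.08; 0.00683). The GSTO1 call ended without KB02 replicate 1 (0.164) and with library size only (0.125), and the GSTA4 call with library size only (0.083). No difference was called for GSTP1 (95% interval -0.45 to 0.38), GSTM2 (-0.15 to 0.38), GSTM4 (-0.24 to 0.15) and GSTZ1 (-0.20 to 0.17). For GSTP1 and GSTM2 those intervals leave room for a difference of the size seen for GSTA4.

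Summed over the 10 members, GST transcripts took 497, 502 and 517 CPM with KB05, 342, 378 and 345 CPM with KB02, and 687, 661 and 666 CPM with DMSO. The sum was thus lowest in every KB02 library and highest in every DMSO library. The membrane-bound members made up 52.7 ± 0.587% of the family's counts with KB05, 41.1 ± 0.922% with KB02 and 60.4 ± 3.08% with DMSO (SD, n = 3 each). Their summed level was 267 ± 8.1 CPM with KB05, 146 ± 10.9 CPM with KB02 and 405 ± 28.7 CPM with DMSO. The other 7 members summed to 239 ± 2.82 CPM with KB05, 209 ± 9.7 CPM with KB02 and 266 ± 16.1 CPM with DMSO. These sums are weighted by transcript length and abundance and were not tested. In bulk RNA, a lower level in all cells and fewer cells that express a gene cannot be told apart.

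**Figure D3:**
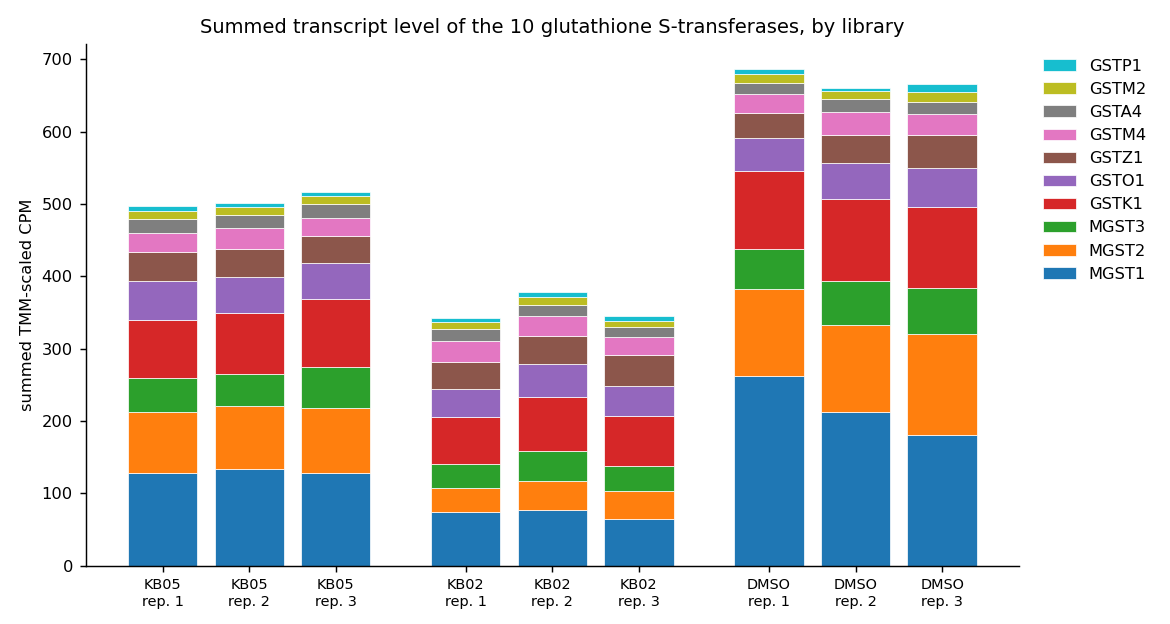
Summed TMM-scaled CPM of the 10 members in each of the 9 libraries, stacked by member, with KB05, KB02 and DMSO libraries in turn. MGST1 and MGST2, the lowest layers, account for most of the difference in height, with family sums between 342 and 378 CPM for KB02 and between 661 and 687 CPM for DMSO.

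Of 16 other GST and MAPEG genes listed, 7 were measured. PTGES and GSTM3 were lower with both compounds, the other 5 were called with neither, and medians were -0.05 for KB05 and -0.12 for KB02. These 2 of 7 stand near the 21.1% of all genes lower with KB05 and the 23.3% lower with KB02. Among those not called, LTC4S, the leukotriene C4 synthase, stood at 0.67 for KB05 and -0.03 for KB02 on the log2 scale. GSTA3, of the alpha class, stood at 0.43 for KB05 and -0.11 for KB02. The KB05 intervals ran from -0.05 to 1.39 for LTC4S and from -0.24 to 1.09 for GSTA3. Group means were only 0.98 to 1.59 CPM for LTC4S and 1.39 to 2.02 CPM for GSTA3. ALOX5AP, which presents arachidonic acid to 5-lipoxygenase, stood at -0.49 for KB05 and -0.53 for KB02. Its DMSO libraries were at 2.01, 1.45 and 4.38 CPM, and only the last lay above all KB05 and KB02 libraries. PTGES, the inducible prostaglandin E synthase of the MAPEG family, averaged 41.2 ± 2.17 CPM with KB05, 23.3 ± 1.23 CPM with KB02 and 62.4 ± 1.71 CPM with DMSO (SD, n = 3 each). Its log2 fold change was -0.60 ± 0.08 for KB05 and -1.42 ± 0.08 for KB02. GSTM3, a mu-class enzyme, averaged 26.4 ± 2.42 CPM with KB05, 19.2 ± 0.554 CPM with KB02 and 34.7 ± 2.22 CPM with DMSO, a change of -0.39 ± 0.09 for KB05 and -0.85 ± 0.09 for KB02. GSTO2, the neighbour of GSTO1, was not called, with changes of -0.05 for KB05 and -0.12 for KB02. In all, 8 relatives in the table were too low to judge, with at most 9 counts in any library: GSTA1, GSTA2, GSTA5, GSTM1, GSTM5, GSTT2, GSTT2B and HPGDS. GSTT1 was not analysed here.

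Of 10 genes that supply glutathione, 4 rose and 2 fell with KB05 (median 0.09), and 5 rose and 1 fell with KB02 (median 0.23). Over all genes tested, 18.7% were called higher and 21.1% lower with KB05, and 22.8% higher and 23.3% lower with KB02. SLC3A2, a subunit of the cystine importer, rose 2.25-fold with KB05, and CTH, which makes cysteine, rose 1.94-fold with KB05 and 1.52-fold with KB02. SLC7A11, the cystine-carrying subunit, fell to 25.9 ± 1.65 CPM with KB05 and rose to 64.7 ± 5.34 CPM with KB02, against 36.0 ± 4.18 CPM with DMSO (SD, n = 3 each). The difference between the compounds was -1.32 ± 0.09 on the log2 scale for KB05 against KB02 (SE).

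Among 24 genes for export and breakdown of glutathione and its conjugates, 18 were measured. Of these, 4 rose and 6 fell with KB05 (median -0.07), and 5 rose and 6 fell with KB02 (median -0.05). Over all genes tested, 18.7% were called higher and 21.1% lower with KB05, and 22.8% higher and 23.3% lower with KB02. CHAC1, which degrades glutathione, rose 7.91-fold with KB05 and 7.21-fold with KB02. GGT7, of the gamma-glutamyltransferase family, fell 2.53-fold with KB02, and the exporter gene ABCC5 fell 2.06-fold with KB05. Of 14 other glutathione-using enzymes, 1 rose and 1 fell with KB05 (median 0.02), and 1 rose and 6 fell with KB02 (median -0.15). The shares of all genes called, in either direction, were 39.8% with KB05 and 46.1% with KB02. GPX8, a membrane-bound peroxidase of the endoplasmic reticulum, averaged 18.7 ± 0.577 CPM with KB05, 7.89 ± 1.9 CPM with KB02 and 23.5 ± 0.582 CPM with DMSO. GPX7, a peroxidase of the endoplasmic reticulum lumen, fell 2.04-fold with KB02, and GLRX3, a glutaredoxin, rose 1.34-fold with KB05.

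**Figure D4:**
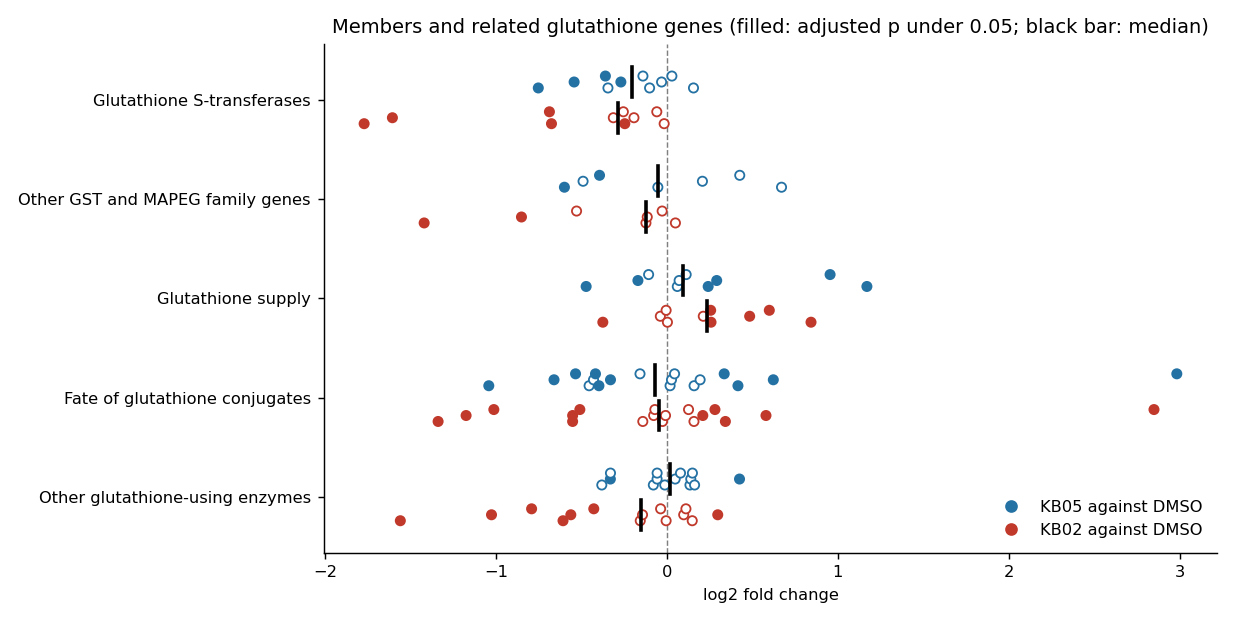
Log2 fold changes against DMSO of the 10 members and of 4 lists of related glutathione genes (rows), for KB05 (blue) and KB02 (red). Filled points passed the edgeR test and black bars are medians; the members' medians are -0.20 for KB05 and -0.28 for KB02.

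Of 16 enzymes and feedback genes named as NRF2 or AHR targets, 15 were measured, with 3 higher and 5 lower for KB05 and 2 higher and 8 lower for KB02. Over all genes tested, 18.7% were called higher and 21.1% lower with KB05, and 22.8% higher and 23.3% lower with KB02. HMOX1, which degrades haem, averaged 544 ± 28.5 CPM with KB05, 52.7 ± 9.58 CPM with KB02 and 9.77 ± 1.58 CPM with DMSO (SD, n = 3 each). CYP1A1, a cytochrome P450 induced through AHR, averaged 15.5 ± 2.87 CPM with KB05, 10.6 ± 1.25 CPM with KB02 and 940 ± 46.2 CPM with DMSO, and CYP1A2, another such cytochrome, averaged 1.44 ± 0.333 CPM with KB05, 1.04 ± 0.114 CPM with KB02 and 55.8 ± 1.36 CPM with DMSO. CYP1B1 was also called lower with both compounds, at -4.42 for KB05 and -4.79 for KB02 on the log2 scale, and EPHX1 at -0.41 and -0.80. Some other genes of this list went in other directions. TIPARP was called higher with both compounds, at 0.62 for KB05 and 0.85 for KB02 on the log2 scale. SRXN1 was called higher with KB05 alone, TXNRD1 lower with KB05 alone and NQO1 lower with KB02 alone. No GST member was called higher against DMSO. The GST members with an XRE core, GSTZ1 and GSTM4, were not called. MGST3, also with such a match, was called lower with both, with KB05 in only 10 of 14 alternative fits. The XRE core occurred in 36.5% of all promoters, and a part of NRF2 or AHR in the GST changes was not tested.

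Outside the pathway, the genes whose log2 CPM followed MGST1 most closely over the 9 libraries, among 13220 compared, were OSTC (Pearson r = 0.997), TMEM50A (0.997) and STARD3NL (0.996). For MGST2 they were TMEM208 (0.998), CD63 (0.997) and DNASE2 (0.995). CD63 averaged 1382 CPM with KB05, 708 CPM with KB02 and 1895 CPM with DMSO. These correlations describe libraries that fall into 3 treatment groups and carry no test.

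As a check of the cells, 10 of 10 prostate luminal markers were measured, at group means between 23.5 and 1234.5 CPM. Of these, 5 were higher and 2 lower with KB05, and 2 higher and 6 lower with KB02. The shares of all genes called, in either direction, were 39.8% with KB05 and 46.1% with KB02. EPCAM, an epithelial adhesion molecule, fell 2.72-fold with KB02, TMPRSS2, a serine protease, fell 1.75-fold with KB05 and 2.53-fold with KB02, and KLK2, a kallikrein, rose 1.34-fold with KB05. Of 18 markers of other cell types 8 were too low to judge and none was at 0 in every library. Their summed level was 75.9 to 82.3 CPM with KB05, 78.4 to 90.6 CPM with KB02 and 65.6 to 88.7 CPM with DMSO. COL1A1, a collagen gene, rose 1.36-fold with KB05 and 1.56-fold with KB02, and CD14, a monocyte marker, was at 0.397 ± 0.269 CPM with KB05, 8.8 ± 2.62 CPM with KB02 and 0.541 ± 0.249 CPM with DMSO. Their part in the GST results was not tested.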

How the data were processed

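The authors deposited estimated counts for each gene, 1 column per library, with no scaling to depth. Salmon 1.3.0, DESeq2 1.30.1, hg38 and GRCh38.p13 are named, with no role, per the submitters' processing notes. The annotation release and the strand setting were both not given in the sources used here. Counts were rounded to whole numbers. Of 60232 Ensembl identifiers, 60064 were found in the name table once versions were dropped, and 41714 have a symbol there.

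The filter filterByExpr of edgeR 4.0.16 (R 4.3.3; minimum count 10) left 18379 genes, libraries were scaled by TMM, and a robust quasi-likelihood model of the 3 groups was fitted to all 9 libraries, without a block. The standard error is the log2 fold change divided by the square root of F. Intervals are at 95%. The fit was run on simulated data with far fewer changed genes than were called here, which does not test error rates in these data. Replicates of a group differed across genes with a chi-square of 4.39 to 10.5 for each degree of freedom, so all 9 libraries were counted separately. At these depths 3 counts in a library correspond to 0.129 to 0.195 CPM, for counting error only.

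Positions and transcript lengths come from GENCODE release 29 (GRCh38), in which all 10 members appear under an older identifier version. The principal transcript is the longest coding one marked as APPRIS principal. Promoters come from RefSeq. All members are named. From each other list, the 2 called genes with the largest change in each comparison against DMSO are named, if their mean log2 CPM reached 1. For members changed at least 2-fold, the 3 genes with the highest Pearson r are named. GSTO2, LTC4S, GSTA3, ALOX5AP, TIPARP, SRXN1, TXNRD1, NQO1, CYP1B1, EPHX1 and the unmeasured relatives were named after their values were seen. Members and lists were chosen with earlier results of these data known. Alternatives were RLE, upper-quartile and library-size scaling, other filters, DESeq2 1.42.0, fits of 2 groups, a replicate block, leaving out each library and, chosen after seeing the data, exon-union length.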

Additional observations from a re-analysis of the deposited data

How the results depend on the processing

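MGST1, MGST2 and GSTK1 kept their direction and their call in all 3 comparisons under every alternative run, and MGST3 did so for KB02 against DMSO and for KB05 against KB02. The number of genes called stayed within 1.5 times in every alternative. Leaving out each library in turn gave 6174 to 6940 genes called for KB05 against DMSO, 7692 to 7969 for KB02 against DMSO and 6314 to 6775 for KB05 against KB02, with 3 to 4, 4 to 5 and 5 to 6 members called in those comparisons. The calls of MGST3 with KB05, of GSTO1 with KB02 and between compounds, and of GSTA4 between compounds are the ones that ended, each under the settings given beside it. GSTP1 gained a call with each compound without DMSO replicate 2, so similar numbers of members called can cover different genes. Scaling by library size only moved the median of all genes to 0.13 for KB02 against DMSO, against 0.00 with TMM, and to -0.06 for KB05 against KB02, against 0.06. It gave 5733 higher and 3254 lower genes for KB02, against 4191 and 4279 with TMM, and 2695 higher and 4518 lower for KB05 against KB02, against 3998 and 3348. GSTZ1 and GSTM4, not called with KB02, then stood at 0.12 and 0.07. Replicate numbers are shared between groups, but deviations of same-numbered libraries correlated between -0.0412 and 0.0813, and not every library correlated best with its own number, so the numbers were not taken as pairs. With the replicate number as a block, 7476 genes were called for KB05 against DMSO, 8600 for KB02 against DMSO and 7518 for KB05 against KB02, and the number of members called was 4, 5 and 6, as without it. GSTP1 had the fewest counts of the members, 89 to 171 per library, and a coefficient of variation of 33.2% with DMSO.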

Other observations

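Among the mu-class genes, GSTM3 fell with both compounds, while GSTM4 and GSTM2 were not called with either, with changes for KB02 of -0.06 and -0.25 and for KB05 of -0.10 and -0.14 on the log2 scale. The difference between GSTM3 and its neighbours was not tested, and the words that GSTM3 shares with other genes were not counted. GSTM1 had 0 counts in every KB05 and KB02 library and 1 to 4 in those of DMSO, below what can be judged.

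MGST1 varied more between DMSO libraries than the other 4 members called with KB02, with a coefficient of variation of 18.8%, against 2.58% with KB05 and 8.58% with KB02. Without DMSO replicate 1 its log2 fold change was -0.60 for KB05 and -1.46 for KB02, and without DMSO replicate 3 it was -0.87 and -1.73.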
